A study of Mus musculus with 4 samples.

Results

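The immunity-related GTPases (IRGs) of the mouse were followed in MC38 tumours as 7 genes, Irgm1, Irgm2, Igtp, Iigp1, Tgtp1, Tgtp2 and Ifi47. These genes were chosen by name as well-characterised members of the family, with earlier results of these data known. They are 7 of 54115 annotated genes, and all 7 were among the 18758 genes that had enough reads to be tested. MC38 is a mouse colon adenocarcinoma cell line, and the tumours were grown by injecting it into mice. The mice received either saline or vanoxerine, an inhibitor of the dopamine transporter, at 25 mg/kg, intraperitoneally, once a day for 10 days. Each treatment is represented by 2 RNA-seq libraries of snap-frozen tumour. Nothing in the labels says that the 2 libraries of a treatment came from separate animals, so a p-value here reads the spread between libraries, and that spread can be technical. The sources used here do not give the strain, sex or age of the mice.

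IRG proteins are cytosolic GTPases that interferon gamma induces strongly in mouse cells. Effector members of the family gather on the vacuoles that hold intracellular pathogens such as Toxoplasma gondii and disrupt them, whereas the regulatory members sit on the cell's own membranes and keep the effectors inactive there. The regulators Irgm1, Irgm2 and Igtp (also called Irgm3) have a methionine in the GTP-binding P-loop where the effectors Iigp1 (Irga6), Tgtp1 and Tgtp2 (both Irgb6) and Ifi47 (Irgd) have the usual lysine. In mice, the transcription factor Irf1 takes part in their induction.

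The P-loop codons are shown because they sort the members into regulators and effectors. Each line gives 24 coding bases, read 5′ to 3′ in the sense of the gene from the GENCODE M21 transcripts on GRCm38, and the capitals mark the codon for methionine (ATG) or lysine (AAG).
Irgm1, chr11:48866761-48866784, reverse strand: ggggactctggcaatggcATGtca
Irgm2, chr11:58219695-58219718, forward strand: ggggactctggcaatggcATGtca
Igtp, chr11:58206275-58206298, forward strand: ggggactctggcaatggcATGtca
Tgtp1, chr11:48987667-48987690, reverse strand: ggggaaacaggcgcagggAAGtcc
Tgtp2, chr11:49059534-49059557, reverse strand: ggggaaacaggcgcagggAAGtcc
Ifi47, chr11:49095648-49095671, forward strand: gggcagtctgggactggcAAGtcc
The 3 regulators shared these bases exactly, as did Tgtp1 and Tgtp2. Over the whole coding sequence Irgm2 and Igtp were 67.6% identical, with a longest identical run of 141 bases, and the other pairs of regulators were 63.3% and 64.4% identical. The codon at this place in Iigp1 was AAG, as in the other effectors.

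Tgtp1 and Tgtp2 are near-identical copies. Their coding sequences of 1248 bases differed at 4 bases, with an identical run of 513 bases, and 2804 of 2823 aligned bases of their longest transcripts were the same. A stretch with 2 of the 4 coding differences, in capitals, shows how little a read has to tell them apart.
Tgtp1, chr11:48987142-48987201, reverse strand: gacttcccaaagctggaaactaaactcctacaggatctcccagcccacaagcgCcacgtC
Tgtp2, chr11:49059009-49059068, reverse strand: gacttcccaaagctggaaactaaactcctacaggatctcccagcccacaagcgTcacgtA
Reads that match both genes were divided between them by estimate when the counts were made, so values of the summed pair are given as well.

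The start-site regions are shown because most of the members carry the same pair of interferon-response motifs. RefSeq (GRCm38.p6) promoter windows, from 250 bases before to 50 bases after the annotated start, were at hand for 6 of the 7 members. Both strands were searched for the core of the interferon-stimulated response element (ISRE), written GAAANNGAAA, which interferon regulatory factors bind, and for the gamma-activated site (GAS), written TTCNNNGAA, through which interferon gamma acts. The ISRE core was in 5 of the 6 windows and in 3.44% of 32851 promoters, and the GAS was in 4 of the 6 and in 8.30% of all promoters. In Irgm2, Igtp, Tgtp1 and Tgtp2 the GAS ended 2 bases before the ISRE core. That arrangement, which was chosen for counting after these sequences had been read, was in 5 of the 32851 promoters, the fifth being that of Gm12185, another gene of the family. Each line gives 60 bases upstream of the start, with the motifs in capitals.
Irgm1, chr11:48871421-48871480, reverse strand: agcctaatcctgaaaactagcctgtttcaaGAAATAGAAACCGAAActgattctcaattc
Irgm2, chr11:58214883-58214942, forward strand: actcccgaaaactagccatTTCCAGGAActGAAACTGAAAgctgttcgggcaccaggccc
Igtp, chr11:58199492-58199551, forward strand: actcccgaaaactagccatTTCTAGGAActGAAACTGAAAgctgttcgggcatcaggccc
Tgtp1, chr11:48992294-48992353, reverse strand: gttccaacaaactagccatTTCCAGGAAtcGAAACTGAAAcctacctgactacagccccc
Tgtp2, chr11:49064253-49064312, reverse strand: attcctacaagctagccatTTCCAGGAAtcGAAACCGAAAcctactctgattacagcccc
Irgm1 had 2 overlapping ISRE cores and no GAS, and the window of Ifi47 held neither set of letters. A match describes the letters and not a site in use.

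The libraries held 75748162 and 70274527 estimated reads in saline and 70564325 and 67289273 in vanoxerine. At an adjusted p under 0.05 in edgeR's quasi-likelihood test, with TMM scaling of library size, 6916 genes were called, 56.9% of them higher in vanoxerine. With upper-quartile scaling 39.0% of the calls were higher, and on log2(TPM + 1) 82.5%, where TPM is the length-scaled share of transcripts. These scalings placed the median log2 fold change of all genes at -0.14 and 0.13, against -0.0096 with TMM. Macrophage markers were higher in vanoxerine in 11 of 11 genes and fibroblast markers lower in 6 of 6. Of 8 epithelial markers, which a colon adenocarcinoma should hold, 6 were tested, with 3 called higher and 0 lower. Cdx2 had no read in any library. The summed level of the list was 16.9 and 19.7 CPM (reads relative to the TMM-scaled library total) in saline and 35.6 and 37.2 CPM in vanoxerine. Most of that sum was Cdh1, at 11.3 and 13.5 CPM in saline and 25.4 and 27.6 CPM in vanoxerine.

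Vanoxerine tumours held more transcript of 5 of the 7 IRG genes than saline tumours, and of none less. The called genes were Iigp1, Irgm2, Tgtp2, Ifi47 and Irgm1, with rises between 1.20-fold and 1.83-fold, while Igtp and Tgtp1 were not called. Of all genes tested, 21% were called higher and 15.9% lower. Both vanoxerine libraries were above both saline libraries for 6 of the 7 members, and for 35.8% of all genes tested. The median log2 fold change of the members was 0.28, against -0.0096 over all genes tested. All 7 were among the more abundant transcripts, since their mean level exceeded that of at least 89.5% of the genes tested. In a bulk sample, more cells of a kind that express a gene and more RNA of it per cell cannot be told apart.

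**Figure D1:**
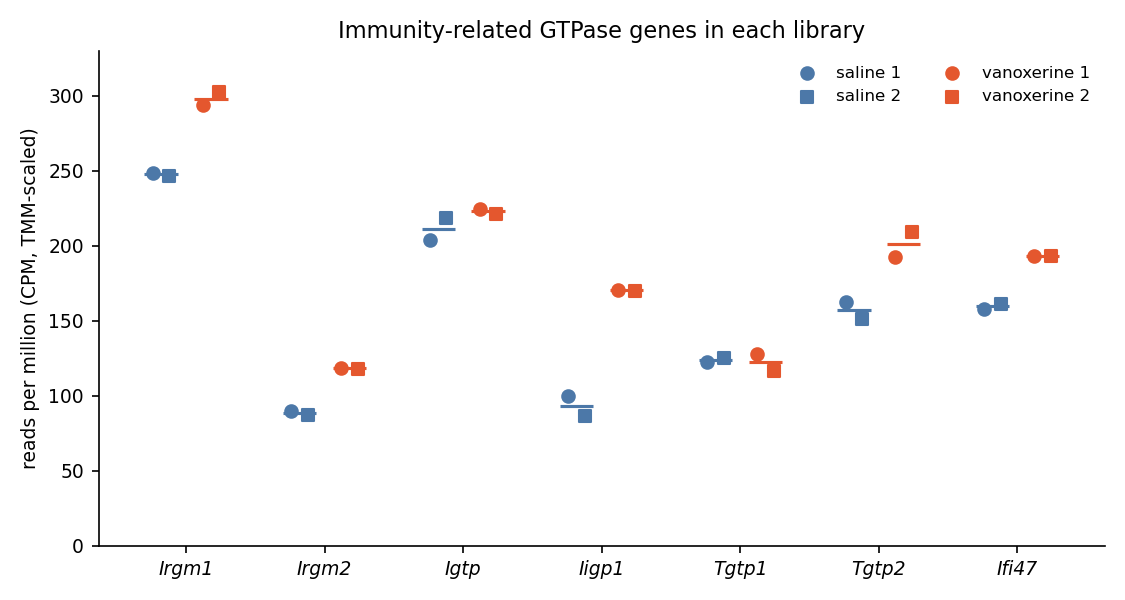
Level of each IRG gene in the 4 libraries, as TMM-scaled CPM on the vertical axis. Points are single libraries (blue saline, red vanoxerine, circle replicate 1, square replicate 2) and bars are group means. The groups are apart for 6 genes, narrowly so for Igtp, and overlap for Tgtp1.

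Among the regulators, Irgm1, which protects interferon-activated cells from their own effectors and is needed in mice for resistance to several intracellular bacteria, was at 248.8 and 246.7 CPM in the saline libraries and 293.7 and 302.3 CPM in the vanoxerine libraries. The groups lay far apart relative to the spread within them, and the rise was 1.20-fold (log2 fold change 0.27 ± 0.042 SE, edgeR adjusted p = 0.00468). Irgm2, a Golgi-associated regulator, was at 90.0 and 87.2 CPM in saline and 118.7 and 118.0 CPM in vanoxerine. Its groups did not overlap either, and it rose 1.34-fold (0.42 ± 0.047, adjusted p = 0.00129). Igtp, a regulator of the endoplasmic reticulum and lipid droplets, was at 203.5 and 218.6 CPM in saline and 224.6 and 221.3 CPM in vanoxerine. Saline replicate 2 came close to the lower vanoxerine library, and the difference of 0.079 ± 0.051 did not pass the test (adjusted p = 0.284). Without saline replicate 1 or 2 the log2 fold change of Igtp was 0.028 or 0.14, each time with a lone saline library. The exons of Igtp and Irgm2 share 162 bases on the same strand, so some of their reads can belong to either.

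Of the effectors, Iigp1, a myristoylated GTPase that coats the vacuole of Toxoplasma, differed most. It was at 99.8 and 86.6 CPM in saline and 170.4 and 169.9 CPM in vanoxerine, so that the higher saline library was far below both vanoxerine libraries. The rise was 1.83-fold (log2 fold change 0.87 ± 0.074 SE, edgeR adjusted p = 0.000455), above the value of 88.9% of all genes tested. Iigp1 was called under all 16 alternatives run, and so was Irgm2. The 2 saline libraries of Iigp1 differed by more than those of any other member relative to their mean, and without saline replicate 1 or 2 the log2 fold change was 0.97 or 0.78.

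Ifi47, the member known as IRG-47, was at 158.1 and 161.1 CPM in saline and 193.1 and 193.3 CPM in vanoxerine. The libraries of each group were close together and the groups well apart, with a rise of 1.21-fold (log2 fold change 0.28 ± 0.043 SE, edgeR adjusted p = 0.00441). An exon of Ifi47 shares 111 bases with the olfactory receptor gene Olfr56 on the same strand and 106 bases with the pseudogene Gm12188 on the opposite strand.

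Tgtp1 and Tgtp2, effectors that are among the first to reach the vacuole, gave different values in the count test. Tgtp1 was at 122.6 and 125.2 CPM in saline and 127.9 and 116.5 CPM in vanoxerine, and the groups overlapped (log2 fold change -0.020 ± 0.060 SE, edgeR adjusted p = 0.830). Tgtp2 was at 162.8 and 151.3 CPM in saline and 192.6 and 209.4 CPM in vanoxerine, a rise of 1.28-fold (0.36 ± 0.063, adjusted p = 0.00718) with no overlap. The summed reads of the pair were 285.4 and 276.5 CPM in saline and 320.5 and 325.9 CPM in vanoxerine. The sum rose by 0.20 ± 0.042 on the log2 scale (adjusted p = 0.0135). Of the reads of the pair, 43.0% and 45.3% were assigned to Tgtp1 in saline and 39.9% and 35.7% in vanoxerine. The pair was not called with upper-quartile scaling (0.068, adjusted p = 0.269), without vanoxerine replicate 1 (0.23, adjusted p = 0.134) or without vanoxerine replicate 2 (0.20, adjusted p = 0.167).

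The result for Tgtp1 depended on how transcript length entered. In the authors' deposited table Tgtp1 had a log2 fold change of 0.34 with an adjusted p of 2.86e-05. That table calls 6 of the 7 members higher, all but Igtp, beside 20.3% of its 16621 genes with an adjusted p. With an average transcript length offset, edgeR gave Tgtp1 a log2 fold change of 0.35 ± 0.054 (adjusted p = 0.0147). It also called 6 members higher, beside 13.9% of all genes tested. The main transcripts of Tgtp1, Tgtp1-201 and Tgtp1-202, read differently on the scales of reads and TPM. Their part in the difference between the fits was not tested. A further model, Tgtp1-203 of 764 bases, received 53 and 0 reads in saline and 167 and 59 in vanoxerine. The short model Tgtp1-202 has 373 bases, of which 25 are coding, and it received 353 and 326 reads in saline and 476 and 506 in vanoxerine. Scaled for length, these few reads made 29.5 and 28.4 TPM in saline and 51.8 and 57.4 TPM in vanoxerine. The full-length Tgtp1-201, of 2823 bases, received 8962 and 8595 reads in saline and 8213 and 7111 in vanoxerine, and stood at 36.6 and 37.3 TPM in saline and 44.1 and 39.8 TPM in vanoxerine. Tgtp1-202 held 43.9% and 43.3% of the TPM of Tgtp1 in saline and 51.6% and 58.1% in vanoxerine. An exon of Tgtp1 also shares 223 bases with its same-strand neighbour Gm12185.

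**Figure D2:**
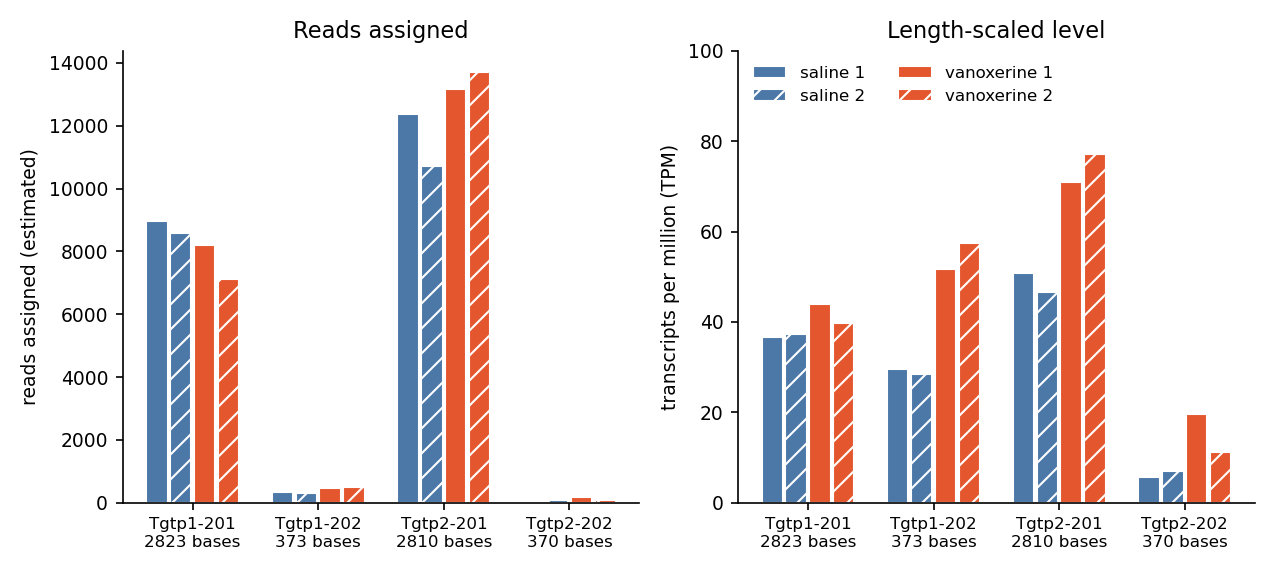
Estimated reads (left panel) and TPM (right panel) of the main transcripts of Tgtp1 and Tgtp2 in each library, with the annotated length under each name. Bars are single libraries (blue saline, red vanoxerine, hatched replicate 2). Tgtp1-202 is small in reads, at 506 or fewer, and reaches 57.4 in TPM.

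Several of these calls depended on the scaling, and some also on keeping both vanoxerine libraries. With upper-quartile scaling Irgm1 (0.13, edgeR adjusted p = 0.0587) and Ifi47 (0.14, adjusted p = 0.0547) were not called, and Igtp stood at -0.055. With that scaling 3 members were called higher, beside 15.4% of all genes tested. Measured from the median of all genes, Irgm1 was at 0.28 with both scalings and Ifi47 at 0.29. Fewer members, and fewer genes in all, were called when either vanoxerine library was left out. The lone vanoxerine library was then assumed to vary like the saline pair. Without vanoxerine replicate 1 or 2 the log2 fold change was 0.30 or 0.26 for Irgm1, 0.29 or 0.29 for Ifi47 and 0.43 or 0.31 for Tgtp2. On log2(TPM + 1) with limma all 7 were called higher, beside 21.8% of all genes tested. Igtp stood there at 0.32 (limma adjusted p = 0.0195), on a scale where the median of all genes was at 0.13. The mean effective length of transcripts, weighted by TPM, was 778 and 754 bases in saline and 945 and 938 bases in vanoxerine. Its part in the TPM values was not tested.

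**Figure D3:**
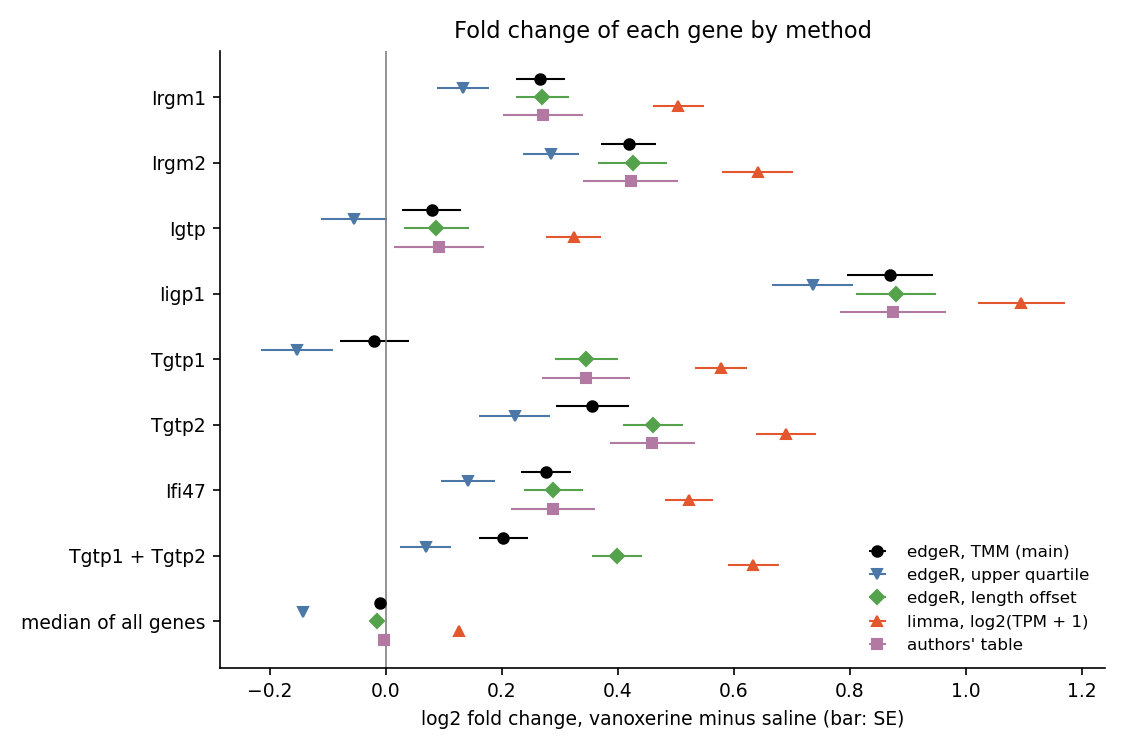
Log2 fold change of vanoxerine against saline (horizontal axis, bars are SE) for each IRG gene, for the summed Tgtp pair and for the median of all genes, by 4 fits and in the authors' deposited table. Iigp1 lies furthest to the right with every method, from 0.74 to 1.10. Tgtp1 lies at -0.020 with counts and at 0.35 with the length offset, 0.58 on log2(TPM + 1) and 0.34 in the authors' deposited table, and at -0.15 with upper-quartile scaling.

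Compared per length, the order of the members was Irgm1, Igtp, Ifi47, Tgtp1, Tgtp2, Iigp1 and Irgm2 in saline, with group means of 104.3, 92.5, 85.0, 66.4, 55.1, 30.3 and 21.8 TPM. In vanoxerine Ifi47, at a mean of 122.6 TPM, passed Igtp, at 116.0 TPM, and the rest of the order was the same. Tgtp1 stands above Tgtp2 in this order with Tgtp1-202 included, whereas the full-length Tgtp2-201, at 50.8 and 46.7 TPM in saline and 71.0 and 77.1 TPM in vanoxerine, was above Tgtp1-201 in every library. Within each group, no library of one member overlapped with those of its neighbour in the order. The summed level of the 7 genes was 459 and 452 TPM in saline and 679 and 674 TPM in vanoxerine, or 1086 and 1077 CPM against 1321 and 1331 CPM. The sums did not overlap on either scale, with ratios of 1.48 in TPM and 1.23 in CPM. An exact 2-sided permutation test gave p = 0.333 for each sum, which is the smallest value that 2 against 2 libraries can give.

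**Figure D4:**
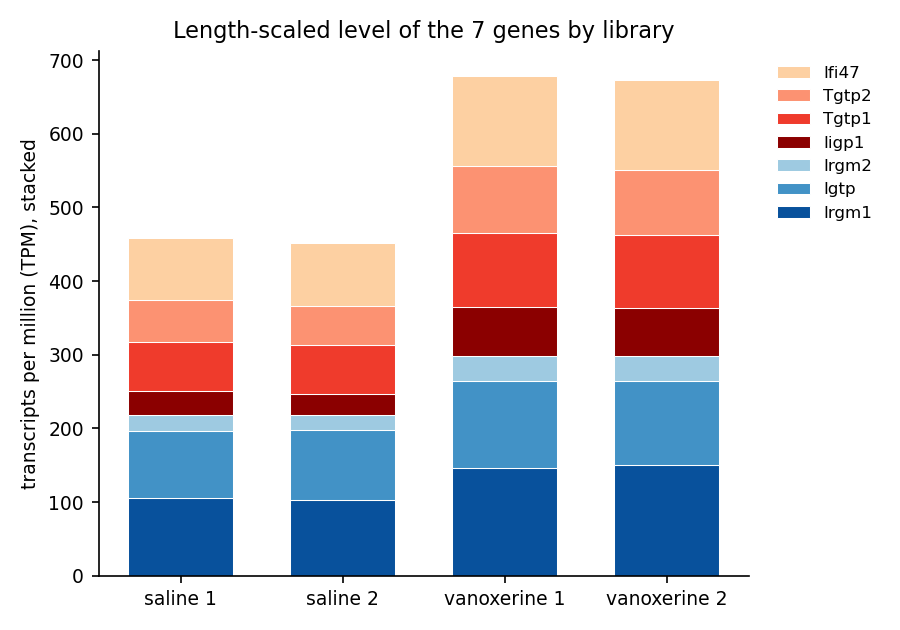
Summed level of the 7 genes in each library, in TPM, with 1 segment for each gene (blue regulators below, red and orange effectors above). The vanoxerine bars reach 679 and 674, the saline bars 459 and 452. The segment of Iigp1 is 7.0% and 6.3% of the bar in saline and 9.7% in both vanoxerine libraries.

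The regulators held a smaller share of the family in the vanoxerine libraries, which in CPM rested on Iigp1. Irgm1, Irgm2 and Igtp made up 47.6% and 48.4% of the summed TPM in saline and 44.0% and 44.3% in vanoxerine, and 50.0% and 51.3% of the summed CPM against 48.2% in both. The groups did not overlap on either scale (exact permutation p = 0.333, the smallest possible). Without Iigp1, a choice made after seeing the data, the regulators held 55.0% and 55.8% of the CPM in saline and 55.4% and 55.3% in vanoxerine, and the groups overlapped. In TPM, which includes the short Tgtp1-202, they then held 51.2% and 51.6% against 48.8% and 49.1%. The 3 regulators together went from 218.6 and 218.4 TPM to 298.9 and 298.7 TPM, and the 4 effectors from 240.5 and 233.1 TPM to 380.0 and 374.9 TPM. Read against Igtp in the same library, which removes the library scaling, Iigp1 moved from -1.03 and -1.34 to -0.40 and -0.38 in log2 of the ratio of reads. Irgm2 moved from -1.18 and -1.33 to -0.92 and -0.91 on the same measure. Both ratios were higher in each vanoxerine library than in either saline library, again with an exact permutation p of 0.333. These ratios set the members with the largest differences in counts against a member that was not called. The groups were also apart in such a ratio for most other pairs of members. These pairs reuse the same members, and how often the groups were apart for pairs of other genes was not counted.

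For Irgm1, Irgm2, Igtp, Iigp1, Tgtp2 and Ifi47 the leading transcript was the same in all 4 libraries. That of Tgtp1, in TPM, was Tgtp1-201 in saline and Tgtp1-202 in vanoxerine. Irgm1 was read mainly as Irgm1-202, with 72.1% and 69.9% of the gene's TPM in saline and 67.1% and 64.0% in vanoxerine. The remainder was nearly all Irgm1-201, at 27.7% and 29.8% against 32.8% and 35.8%, and the groups did not overlap. Igtp-201 held 93.4% and 94.1% of Igtp in saline and 96.7% and 97.0% in vanoxerine. Iigp1-202 held 68.3% and 71.8% of Iigp1 in saline and 70.5% and 67.3% in vanoxerine, and its groups overlapped. In Ifi47 the transcript Ifi47-202 held between 76.1% and 79.5% in every library. Shares of transcripts carry no test, since the files give no error for the estimates.

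The 7 genes lie in a few clusters together with less studied loci. Irgm1, Tgtp1, Tgtp2 and Ifi47 lie within 235.0 kb of chromosome 11 (48861968 to 49096974, GRCm38), and Igtp and Irgm2 within 23.2 kb of it (58199556 to 58222782), 9.10 Mb away. Iigp1 lies on chromosome 18 (60376027 to 60392634, forward strand) in the same stretch as Gm4951, Gm4841 and F830016B08Rik. Of 12 further loci listed for the family, 10 were in the annotation and were tested, and Iigp1b and Iigp1c were not found in it under those symbols. Among these 10, 6 were called higher and 0 lower, beside 21% and 15.9% of all genes tested. The median log2 fold change of the 10 was 0.46.

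The gene 9930111J21Rik2 on chromosome 11, which RefSeq also names Irgb5, was the most abundant of them, at 70.5 and 67.1 CPM in saline and 87.8 and 86.7 CPM in vanoxerine (log2 fold change 0.34 ± 0.051 SE, edgeR adjusted p = 0.00366). Its libraries did not overlap between groups. Gm12250, which RefSeq also names Irgb10, an effector known in mice for attacking bacteria and their vacuoles, was at 33.9 and 35.8 CPM in saline and 47.1 and 47.7 CPM in vanoxerine (0.44 ± 0.062, adjusted p = 0.00287). It rose although the annotation used here models it as a processed pseudogene of 1 transcript. Gm5431 went from 16.2 and 15.6 CPM to 27.0 and 25.8 CPM (0.73 ± 0.079, adjusted p = 0.00109). Gm4951, a neighbour of Iigp1, went from 15.8 and 12.0 CPM to 25.6 and 23.9 CPM (0.83 ± 0.14, adjusted p = 0.00659). Both rose without overlap between the groups. The remaining called loci were 9930111J21Rik1 (0.48 ± 0.090, adjusted p = 0.00875), which was not called with the length offset (0.17, adjusted p = 0.443), on log2(TPM + 1) (0.37, adjusted p = 0.12) or without vanoxerine replicate 2 (0.43, adjusted p = 0.111), and Gm12185 (0.41 ± 0.11, adjusted p = 0.0314), which was not called with upper-quartile scaling (0.27, adjusted p = 0.0947), by DESeq2 (0.41, adjusted p = 0.0612), with protein-coding transcripts alone (0.33, adjusted p = 0.0887) or without vanoxerine replicate 1 or 2 (adjusted p = 0.142 and 0.223). Without vanoxerine replicate 1 or 2, 9930111J21Rik2 was not called either (adjusted p = 0.0593 and 0.0599).

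The other 4 loci were not called. F830016B08Rik stood at 0.74 ± 0.24 (edgeR adjusted p = 0.0601), Gm4841 at 0.090 ± 0.16 (adjusted p = 0.706), Irgq, a distant relative on chromosome 7, at 0.0066 ± 0.10 (adjusted p = 0.969), and Irgc1, known as a gene of the testis, had 19 or fewer reads in each library (adjusted p = 0.604). The median log2 fold change of all 10 loci was 0.51 or 0.44 without vanoxerine replicate 1 or 2.

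The guanylate-binding proteins (GBPs), larger interferon-inducible GTPases that act on the same vacuoles, were called higher in 9 of 11 genes and lower in 0. The median over these genes was 0.52 on the log2 scale. Over all genes tested, 21% were called higher and 15.9% lower. Gbp2 was at 343.8 and 338.3 CPM in saline and 608.5 and 620.3 CPM in vanoxerine (0.85 ± 0.039 SE, edgeR adjusted p = 5.56e-05). Gbp4 was at 75.3 and 65.3 CPM against 164.8 and 154.0 CPM, and Gbp8 at 25.7 and 24.3 CPM against 50.3 and 47.3 CPM. Gbp2b differed most, from 1.01 and 0.716 CPM to 24.9 and 23.6 CPM. No library overlapped between groups in these 4 genes, which have close relatives that can share reads. The highest of the 7 IRG members, Iigp1 at 0.87, was close to Gbp2, while the other called members were at 0.27 to 0.42. Whether the 2 families differed was not tested.

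Upstream of the family, the receptor chains Ifngr1 and Ifngr2 and the transcription factors Irf1 and Irf8 rose, whereas the cytokine gene itself fell. Ifng, the interferon gamma gene, was at 28.9 and 31.4 CPM in saline and 12.6 and 11.6 CPM in vanoxerine, with no overlap (log2 fold change -1.31 ± 0.090 SE, edgeR adjusted p = 0.000203). Irf1 was at 270.1 and 270.6 CPM in saline and 344.3 and 354.9 CPM in vanoxerine (0.37 ± 0.042, adjusted p = 0.00127). Both vanoxerine libraries were above both saline libraries for Irf1, as they were for Ifngr1 (0.83 ± 0.043), Ifngr2 (1.09 ± 0.058), Ifnar1 (1.10 ± 0.056) and Irf8 (0.91 ± 0.040). Of 16 interferon ligands, receptors and signalling genes, 10 were called higher and 1, Ifng, lower, beside 21% and 15.9% of all genes tested. Their median was 0.49.

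Among other genes that interferons induce, some were called higher and some lower, beside 21% higher and 15.9% lower of all genes tested. The share of all genes called higher was 15.4% with upper-quartile scaling and 21.8% on log2(TPM + 1). Of the 18758 genes tested, 4525 were called lower with upper-quartile scaling and 870 on log2(TPM + 1), against 2983 in the main fit. Of 15 targets of interferon gamma, 7 were called higher and 4 lower, and the median was 0.13 on the log2 scale. The counts were 5 and 5 with upper-quartile scaling (median -0.0022) and 10 and 2 on log2(TPM + 1). Their median was 0.15 or 0.13 without vanoxerine replicate 1 or 2. Serpina3g, a serine protease inhibitor gene, rose by 1.26 ± 0.057, the checkpoint ligand gene Cd274 by 0.91 ± 0.043, the chemokine gene Cxcl9 by 0.91 ± 0.057 and the inducible nitric oxide synthase gene Nos2 by 0.66 ± 0.047 (edgeR adjusted p = 5.35e-05, 6.23e-05, 0.000150 and 0.000226). Of 24 genes typical of type I interferon, 3 were called higher and 13 lower, with a median of -0.26. The median of these genes was -0.25 or -0.23 without vanoxerine replicate 1 or 2. With upper-quartile scaling 0 were called higher and 17 lower, whereas on log2(TPM + 1) with limma 7 were called higher and 4 lower, with a median of -0.011. Usp18, which removes Isg15 from proteins, fell by 0.71 ± 0.042, Bst2, a factor that tethers viruses to cells, by 0.65 ± 0.044, Isg15, a ubiquitin-like modifier, by 0.58 ± 0.039, and Oas2, a sensor of double-stranded RNA, by 0.53 ± 0.041 (adjusted p from 0.000123 to 0.000312). The differences between these lists and the IRG members were not tested.

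**Figure D5:**
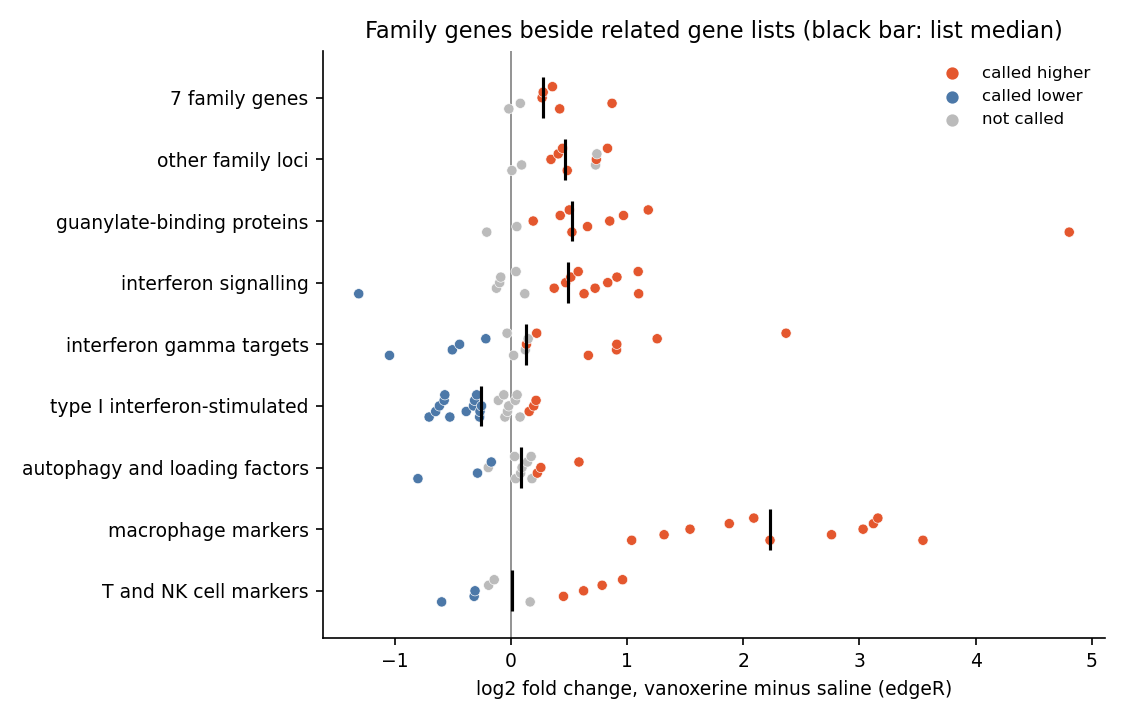
Log2 fold change of vanoxerine against saline (horizontal axis) for each tested gene of the IRG family and of related lists. Each point is a gene (red called higher, blue called lower, grey not called) and each black bar a list median. The 7 members lie between -0.020 and 0.87, with a median of 0.28, and the macrophage markers have a median of 2.23.

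Macrophage markers were higher in the same libraries as the IRG genes. The marker counts below stand beside 21% called higher and 15.9% lower of all genes tested. The 11 macrophage markers, none of them at 0, summed to 1218 and 1270 CPM in saline and 5432 and 5438 CPM in vanoxerine, and all 11 were called higher, with log2 fold changes from 1.04 to 3.55. The 10 markers of T and NK cells summed to 540.5 and 558.7 CPM in saline and 546.0 and 522.6 CPM in vanoxerine, with 4 called higher and 3 lower and none at 0. Neutrophil markers were called lower in 3 of 6, at 904 and 945 CPM against 537 and 532 CPM in sum, endothelial markers lower in 4 of 6, at 95.2 and 90.0 CPM against 42.7 and 48.4 CPM, and fibroblast markers lower in 6 of 6, at 490.1 and 481.0 CPM against 250.8 and 249.9 CPM. Erythroid markers were called lower in 5 of 5, at 13965 and 15077 CPM in saline and 6246 and 5901 CPM in vanoxerine in sum, with a median of -1.31 on the log2 scale. The part of these shifts in the values of the IRG genes was not tested.

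The genes whose pattern over the 4 libraries was most like the mean of the members were Chp1, Slc35e2, Zmat3, 4932438A13Rik and Smim15. Likeness was the Euclidean distance between log2 CPM values centred on each gene's mean, over 4 libraries and 13035 genes, and these 5 were at 0.0057 to 0.016. Chp1, a calcium-binding protein gene, was at 86.8 and 84.6 CPM in saline and 107.3 and 107.2 CPM in vanoxerine. Among the members themselves Ifi47, at 0.060, and Irgm1, at 0.063, were nearest to their common mean, and Iigp1, at 0.56, was furthest from it. With 4 libraries in 2 groups, such a distance mostly reads the size of the difference between the groups.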

How the data were processed

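Per the labels' protocols, total RNA of snap-frozen tumours was made into TruSeq RNA v2 libraries for a NextSeq 500. Per the submitters' processing notes, fastp, Salmon 1.3.0 and DESeq2 were used with GRCm38. The sources used here do not give the annotation release or strand setting. Per the file headers, the authors deposited an estimated count (reads assigned by Salmon, not normalized), TPM and effective length for 140992 transcripts per library, and a table with a base mean (a normalized signal), log2 fold changes and p-values, whose values are named as such. Its 4 FPKM columns match no sample and were not used.

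Estimated counts and TPM were summed per gene with GENCODE M21 (139791 transcripts, 54115 genes, 99.56% to 99.63% of reads), and counts were rounded. edgeR 4.0.16 (R 4.3.3; TMM; minimum count 10, minimum total 15; no block) tested 18758 genes with Benjamini-Hochberg adjustment, called under 0.05. SE comes from the F statistic. Sequence identity came from global alignments in Biopython 1.88. Alternatives were other scalings and filters, DESeq2 1.42.0, limma 3.58.1 (voom, and log2(TPM + 1) with trend), a length offset, protein-coding transcripts, an adjusted p under 0.1, a replicate block and leaving out each library.

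The members and gene lists were chosen with earlier results of these data known. The genes named are all members, every tested locus of the family, up to 4 called genes of each list with the smallest p, Ifng, Irf1, Gbp2 and the 5 genes nearest in pattern; a further gene that the rule takes is not reported here. Marker genes that this rule also takes are described by list, except Cdh1.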

Additional observations from a re-analysis of the deposited data

How the results depend on the processing

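Over 16 alternatives to the count of 5 members called higher, no member was called lower in any. The count was 3 with upper-quartile scaling and between 2 and 6 when single libraries were left out. The median log2 fold change of the members, 0.28, was 0.14 with upper-quartile scaling, 0.23 with library totals, 0.23 with a mean CPM of at least 1, 0.35 with the length offset, 0.58 on log2(TPM + 1), 0.22 with protein-coding transcripts alone and 0.27 to 0.30 when single libraries were left out. The summed Tgtp1 and Tgtp2, at 0.20, gave 0.068 with upper-quartile scaling, 0.40 with the length offset, 0.63 on log2(TPM + 1) and 0.19 to 0.23 without single libraries. Tgtp1, at -0.020, changed sign, to 0.35 with the length offset and 0.58 on log2(TPM + 1). Its sign also changed without saline replicate 2, to 0.0080, and without vanoxerine replicate 2, to 0.057. The summed family, with a log2 ratio of 0.57 in TPM, gave 0.29 in CPM, 0.55 without Tgtp1 and Tgtp2, 0.52 without Iigp1 and 0.56 to 0.58 without single libraries, the last 2 alternatives chosen after seeing the data. The genes called in all, 6916, were 4309 with the length offset and 3107 to 9708 without single libraries. The causes were not tested.

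The labels number the libraries of both groups 1 and 2. The deviations of same-numbered libraries correlated at -0.039 over 9871 genes, so no strong shared pattern was seen over these genes. The labels do not say whether same-numbered libraries share a batch, and this value cannot tell. With a replicate block 5 members and 6391 genes were called, the member median was 0.28 and the Tgtp pair was at 0.20. With 2 libraries per group, precision is limited by the number of libraries and not by the 6167 to 20336 reads of each member.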

Other observations

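IRG effectors are loaded onto vacuoles with the help of the autophagy conjugation system and of ubiquitin-binding adaptors. Of 14 such genes, 3 were called higher in vanoxerine and 3 lower, with a median of 0.088 on the log2 scale, beside 21% and 15.9% of all genes tested. The counts higher and lower were 1 and 4 with upper-quartile scaling, beside 2895 and 4525 of the 18758 genes tested. On log2(TPM + 1) they were 7 and 1, beside 4094 and 870 genes. With the replicate block they were 1 and 2, beside 3757 and 2634 genes. The main fit called 3933 and 2983 genes. Without vanoxerine replicate 2 the median of the 14 genes was 0.12. Map1lc3a, which encodes an LC3 protein of the autophagosome membrane, was at 16.8 and 17.4 CPM in saline and 9.61 and 9.99 CPM in vanoxerine (-0.80 ± 0.095 SE, edgeR adjusted p = 0.00153). Sqstm1, the adaptor p62, was at 1029 and 1074 CPM in saline and 869.6 and 850.3 CPM in vanoxerine (-0.29 ± 0.040, adjusted p = 0.00268). Both fell without overlap between the groups. The ubiquitin ligase gene Traf6 was at 23.7 and 26.6 CPM against 34.9 and 40.6 CPM (0.58 ± 0.10, adjusted p = 0.00703), and Atg7, the activating enzyme of the conjugation system, was at 23.9 and 24.6 CPM against 29.0 and 28.9 CPM (0.26 ± 0.069, adjusted p = 0.0323).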
